A study of Mus musculus with 56 samples.

Results

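The lung and the forestomach of the same 5 vehicle control mice were compared on 10 of the 56 arrays of the series. Members were chosen by the sample titles alone, as the 5 lung and the 5 forestomach arrays of dose group D0. The animals were adult male Muta™Mouse of about 14 weeks, a transgenic strain that carries a lacZ reporter in every tissue to score mutations. D0 mice received olive oil alone by oral gavage on 28 consecutive days, and their tissues were taken 72 hours after the final dose. The dosed mice, used here only to repeat the comparison, were given chrysene, a polycyclic aromatic hydrocarbon, in the same oil at 17.5 (D1), 50 (D2) or 150 mg/kg per day (D3), and they contributed 13 lung and 14 forestomach arrays. On each array the RNA of 1 tissue of 1 mouse was labelled with Cy5, and Cy3, per the labels and the study's methods, marked a common reference, a commercial mouse RNA pooled from 11 cell lines. Values are log2 ratios of sample over reference unless a sentence says otherwise, and a difference is the D0 lung mean minus the D0 forestomach mean.

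Lung and forestomach both arise from the embryonic foregut and part ways early. The mouse lung is lined by airway epithelium with secretory and ciliated cells and, in the alveoli, by flat type 1 cells for gas exchange and type 2 cells that secrete surfactant, all in close contact with a dense bed of capillaries. The forestomach is the upper, non-glandular chamber of the rodent stomach. It is lined by a stratified squamous epithelium that cornifies, much like the epidermis, and is wrapped in smooth muscle. It borders on the glandular stomach, whose surface, chief and parietal cells make mucus, pepsinogens, acid and intrinsic factor. Bulk RNA cannot tell fewer cells of a type from less RNA per cell.

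The 5 D0 forestomach arrays did not give equal signals. Between 49.0% and 53.9% of spots were well above background in Cy5 on the 5 lung arrays, where the scanner software's flag marks such spots. On the forestomach arrays of mice 2 and 5, which shared slide 3, the share was 50.1% and 50.3%, but on those of mice 1, 3 and 4, on slides 1 and 2, it was 24.6%, 25.5% and 18.9%. The 95th percentile of their Cy5 signal was 501, 432 and 278.5, against 5887 and 6220 on slide 3. In Cy3 no array was dim to this degree, but the tissues did not overlap. The share of spots well above background in Cy3 was 47.8% to 54.4% on lung and 54.6% to 58.2% on forestomach arrays. The 95th percentile of Cy3 was 4828 to 5755 on lung and 6543 to 7483 on forestomach arrays. Every slide held a single tissue, so that slide and tissue cannot be told apart. The test took probes that carried this Cy5 flag on 3 or more of the 10 arrays. This left 29050 of 55681 probes and, with 1 probe for each gene symbol, 14380 genes, of which 5945 were well above background on all 10 arrays.

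Of the 14380 genes, 3552 (24.7%) were higher in lung and 2902 (20.2%) were higher in forestomach at an adjusted P of at most 0.05 and a fold change of at least 1.5 (limma, Benjamini-Hochberg). These shares are the background for every list below. At 4-fold or more, 896 genes (6.23%) were higher in lung and 537 (3.73%) in forestomach. In 3636 genes (25.3%) all lung arrays lay above all forestomach arrays, and in 2851 (19.8%) all lay below. The median difference over all genes was 0.04. With the forestomach arrays of slide 3 alone the counts were 3922 and 3149, and with those of slides 1 and 2 alone they were 3752 and 3288. With mouse as a block they were 3535 and 2906. With each array centred on its median and no LOWESS, however, 97.2% of calls were higher in lung, against 55.0% here, as the median difference over all genes moved to 1.60.

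**Figure D1:**
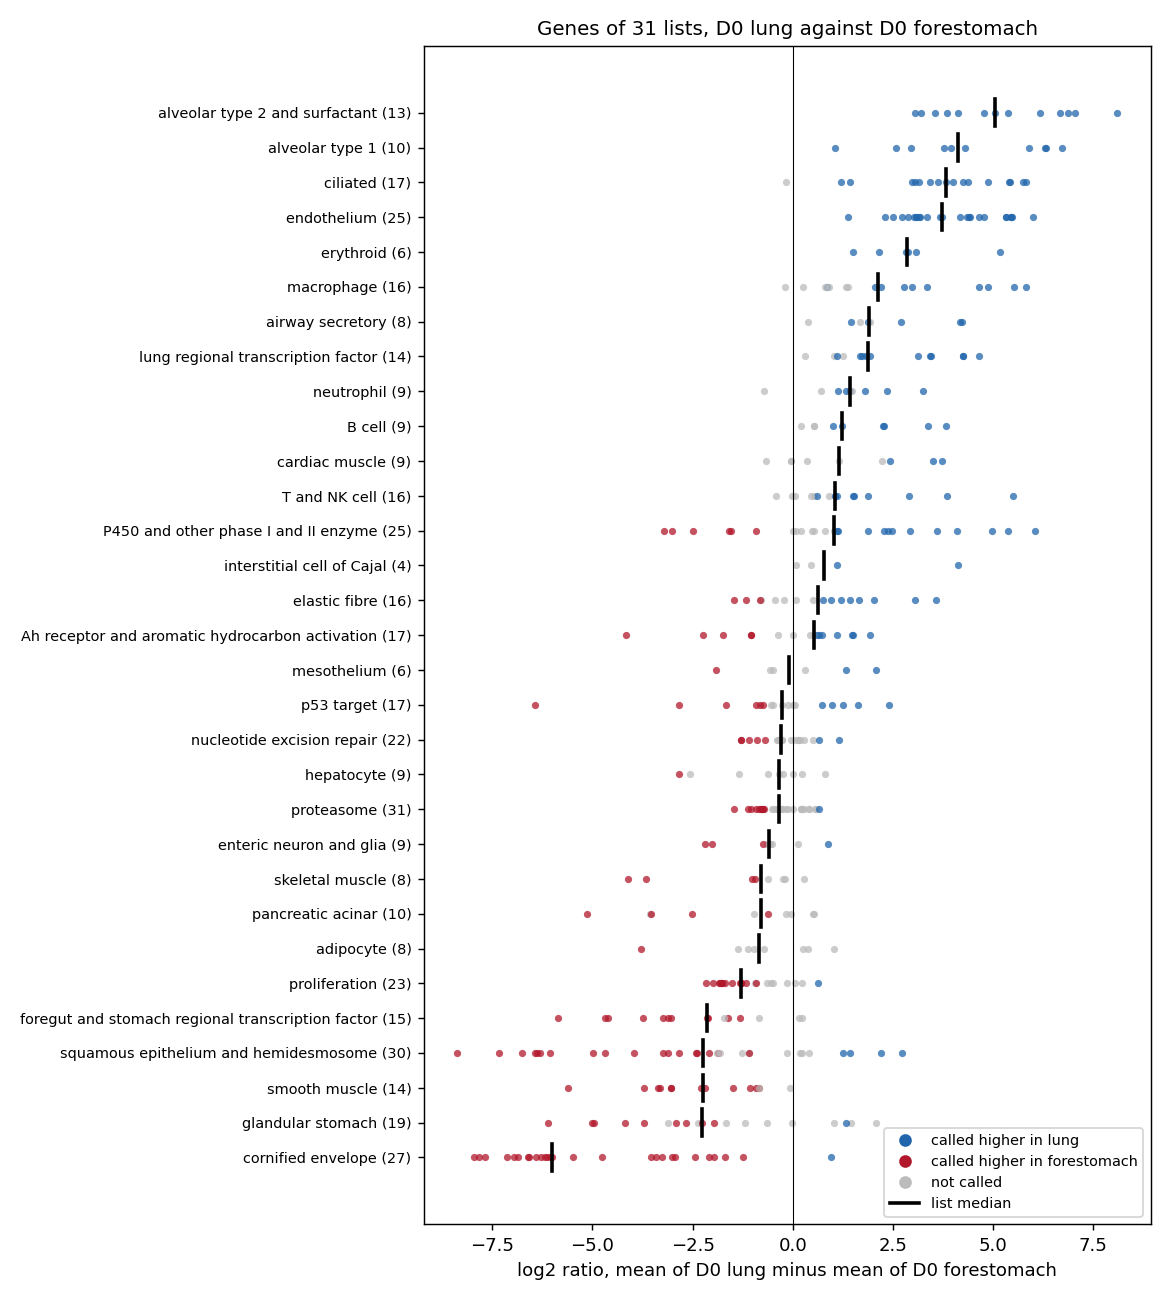
Difference between D0 lung and D0 forestomach (log2, horizontal axis) for each tested gene (points) of 31 gene lists (vertical axis, number of genes tested in parentheses), with the list median as a black bar; blue and red mark genes called higher in lung and in forestomach. The medians run from 5.05 for the alveolar type 2 list to -6.00 for the cornified envelope list.

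Alveolar epithelial genes were higher in lung, and the type 2 list had the highest median ratio difference of the 31 lists. All 13 genes of the alveolar type 2 and surfactant list were higher in lung, with a median difference of 5.05 (5.12 with the genes at background in forestomach set at their bound), and so were all 10 tested genes of the alveolar type 1 list, with a median of 4.13. Of these genes, 4 of the 13 and 2 of the 10 entered the test with no forestomach array above background and passed the filter through lung alone. Among the 4 and 3 genes measured on all 10 arrays the medians were 3.70 and 2.59. In Cy5 alone the type 1 list had a median of 4.78, below the erythroid list at 4.89. Sftpc, which encodes surfactant protein C, had ratios of 8.41, 8.48, 7.67, 8.80 and 7.86 in the lungs of mice 1 to 5 and of 0.20, 0.31, 0.23, -0.10 and 0.05 in their forestomachs. The tissues did not overlap, and the probe was well above background on none of the 5 forestomach arrays. Such a gene has only a bound there. From the Cy5 channel alone, after loess and Aquantile normalization, Sftpc was at least 5984-fold higher in lung. Its ratio difference of 8.11 (adjusted P = 7.90e-10) is set against background readings, and the probe passed the filter through lung alone. No dyes were swapped, so that dye bias in these bounds was not measured. Each bound took its limit on an array from normalized Cy5 signal, with no further allowance for the dim forestomach arrays of mice 1, 3 and 4. The bounds on the lung side may thus be too large.

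The other genes with the largest bounds on the lung side came from several lung cell types. Sftpa1, a further surfactant protein, was at least 1130-fold higher in lung. Ager, a receptor that marks alveolar type 1 cells, was at least 233.8-fold higher, and Cxcl15, a chemokine known from lung epithelium, at least 191-fold. Ccdc153 and Sec14l3, both members of the ciliated cell list, were at least 57.8-fold and 52.6-fold higher. Hc, the gene of complement component C5, was at least 59.2-fold higher in lung and was also well above background on all 5 D0 liver arrays, where its mean was 7.40. Mlc1, a membrane protein gene, was at least 57.3-fold higher. Sftpb, the surfactant protein needed for lamellar bodies, was at background on 4 of the 5 forestomach arrays, and read 6.64 to 6.99 in lung and -0.05 to 0.50 in forestomach.

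**Figure D2:**
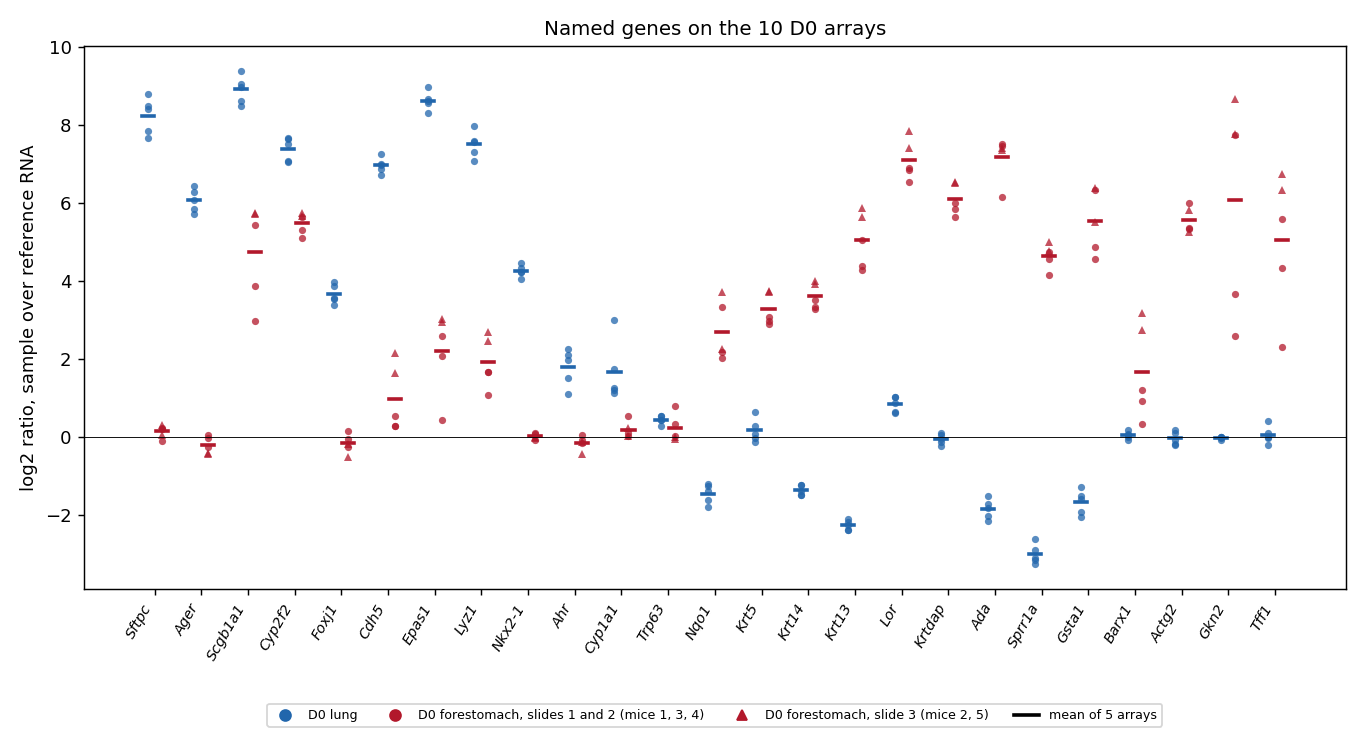
Log2 ratio of sample over reference RNA (vertical axis) of 25 genes on each of the 10 D0 arrays, with the mean of 5 arrays as a bar; triangles are the forestomach arrays of slide 3. Sftpc, Nkx2-1 and Foxj1 sit near 0 on all forestomach arrays, Krtdap and Gkn2 near 0 on all lung arrays, and Gkn2 spreads from 2.59 to 8.66 in forestomach.

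Ciliated cell genes were higher in lung in 16 of 17 cases, with a median of 3.83. Of the 17 genes, 7 had no forestomach array above background, and the median was 1.21 among the 3 measured on all 10 arrays. Foxj1, the transcription factor that drives the motile cilium program, was at least 14.9-fold higher. The airway secretory list was less one-sided, with 5 of 8 genes higher in lung and 3 not called. Its mean ratio was 3.58, 3.70, 3.33, 5.47 and 6.04 in the lungs of mice 1 to 5, higher in mice 4 and 5. In the forestomachs of mice 1 to 5 it was 1.38, 3.19, 2.48, 1.20 and 2.34, higher on the 3 arrays that also carried glandular stomach genes (given further on), and the part of those genes in the result was not tested. With the forestomachs of mice 1 and 4 alone, 7 of the 8 genes were higher in lung, and the median moved from 1.91 to 3.37. Scgb1a1, the club cell secretory protein, had ratios of 8.99, 9.07, 8.50, 9.40 and 8.63 in lung and of 5.43, 5.75, 2.98, 3.88 and 5.73 in forestomach. It was higher in lung by 4.17 ± 0.51 (SE) with no overlap, and yet well above background on all 5 forestomach arrays. Cyp2f2, a P450 of club cells, likewise was well above background in every forestomach, where it ranged from 5.10 to 5.74, against 7.04 to 7.67 in lung, a 3.71-fold difference (adjusted P = 7.35e-06). Its raw Cy3 reference signal was 1257 to 2059 on the lung arrays and 346 to 759 on the forestomach arrays, and in Cy5 alone Cyp2f2 differed by 3.99 on the log2 scale, against 1.89 as a ratio. The surfactant genes Sftpc and Sftpa1 and the cilium gene Foxj1 were at background on all 5 of those forestomach arrays.

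The endothelium list was higher in lung throughout, with 25 of 25 genes called and a median of 3.72. The median was 3.05 with forestomach slide 3 alone and 4.31 with slides 1 and 2, where 8 to 10 of the 25 genes were above background, against 23 on slide 3. Of the 25, 2 had no forestomach array above background and passed the filter through lung alone, and 7 were measured on all 10 arrays. Among genes measured on all 10 arrays, the largest ratio difference on the lung side was that of Ptprb (in Cy5 alone Scgb1a1, at 7.55, exceeded its 7.00), the endothelial receptor phosphatase VE-PTP, with 9.24, 9.56, 8.90, 9.51 and 8.94 in lung and 1.60, 4.70, 1.76, 1.05 and 4.76 in forestomach. All lung values were high and close together, whereas the forestomach values were higher on the arrays of slide 3. The difference of 6.45 (87.6-fold) was 4.50 with slide 3 alone and 7.76 with slides 1 and 2. Epas1, which encodes the hypoxia factor HIF-2 alpha, ranged from 8.32 to 8.98 in lung and from 0.43 to 3.02 in forestomach. Its difference was 6.42, but 1 of its 2 further probes gave -0.13 (adjusted P = 0.486). Flt1, a VEGF receptor, and Icam2, an endothelial adhesion molecule, differed by 4.78 and 4.65. Cdh5, the cadherin of endothelial junctions, was well above background on 2 of 5 forestomach arrays and differed by 5.99 ± 0.35 (SE), with the other 3 at background.

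The remaining genes of the 10 largest on the lung side were Lyz1, a lysozyme (48.5-fold), Pakap (28.8-fold), Ctla2b (24.0-fold), Tm4sf1 (23.5-fold), Tspan7, a tetraspanin (21.7-fold), and Selenbp1, a selenium-binding protein (18.7-fold). Their adjusted P values ranged from 1.06e-08 for Pakap to 1.06e-07 for Lyz1. For Pakap the 3 further probes gave 0.02, 0.98 and 2.62, so that its size depended on the probe.

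Blood and immune cell genes were also higher in lung. All 6 tested genes of the erythroid list were called, with a median of 2.86. The macrophage list had 10 of 16 genes higher in lung, the B cell list 6 of 9, the T and NK cell list 9 of 16 and the neutrophil list 6 of 9, and none of the 4 had a gene called higher in forestomach. With the forestomach arrays of mice 1 and 4 alone, 2 T and NK cell genes and 1 neutrophil gene were called higher there. Of the tested genes, 1 erythroid, 1 macrophage, 3 B cell, 5 T and NK cell and 3 neutrophil genes had no forestomach array above background and passed the filter through lung alone. The T and NK cell median was 1.05, and the only member measured on all 10 arrays was at 0.06. Among the macrophage genes, Marco, a scavenger receptor of alveolar macrophages, differed by 4.64, whereas C1qa, a complement gene of most tissue macrophages, differed by 1.39 and was not called. How much of these differences was blood left in the vessels was not tested.

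On the forestomach side the cornified envelope led. Of 27 tested genes of this list, 26 were higher in forestomach, with a median difference of -6.00 (-6.38 with genes at background in lung set at their bound). Of the 27, 15 had no lung array above background and passed the filter through forestomach alone, and the median was -4.76 over all measured members without the filter. With median centring in place of LOWESS the list's median was -3.01. The exception, named after its value was seen, was Tchh, the trichohyalin gene, at 0.96. Among genes measured on all 10 arrays, Ada, adenosine deaminase, showed the largest ratio difference of either direction. In Cy5 alone Ada differed by -8.42, less than Lor at -11.3, Asprv1 at -10.4, Psapl1 at -8.89 and Cst6 at -8.63. Its ratios were -2.03, -1.52, -1.83, -2.18 and -1.73 in lung and 7.46, 7.37, 6.16, 7.51 and 7.42 in forestomach. This is a 527-fold difference (-9.04 ± 0.25 SE, adjusted P = 1.51e-09), and the lowest forestomach value, from mouse 3, was still far above every lung value.

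Most of the genes that followed Ada belong to the last steps of keratinocyte maturation. Cst6, the protease inhibitor cystatin E/M, was 229-fold higher in forestomach, and Sprr1a, a small proline-rich precursor of the envelope, 204-fold. Sprr1a ranged from -3.28 to -2.64 in lung and from 4.15 to 5.01 in forestomach. Cdsn, which encodes corneodesmosin, an adhesive protein of cornified cells, differed by -7.13. Asprv1, a protease that processes filaggrin, was 124-fold higher, and Sbsn, suprabasin, 116-fold. Lor, loricrin, the main protein of the epidermal envelope, was 78.1-fold higher. Gsta1, a glutathione S-transferase, and Psapl1, a prosaposin-like gene, were both 148-fold higher. Perp, a p53 target that is also part of desmosomes, was 86.1-fold higher.

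A further 8 genes were named for the largest bounds among those well above background on all 5 forestomach arrays and on no lung array. Krtdap, a keratinocyte differentiation gene, was at least 2152-fold higher in forestomach. The late cornified envelope genes Lce1a1, Lce1i and Lce1e were at least 1409-fold, 908-fold and 646-fold higher, but with median centring the ratio differences of Lce1a1 and Lce1e were -2.39 and -0.86 and were not called (adjusted P = 0.0779 and 0.487). Krt1, a suprabasal keratin, was at least 1383-fold higher and Krt13, the suprabasal keratin of internal mucosae, at least 670.1-fold. Crct1 was at least 1088-fold and Lypd3, a surface protein of squamous cells, at least 865-fold higher. Of the genes just named, Sprr1a, Lor, Crct1, Lce1a1, Lce1i and Lce1e all lie on chromosome 3, which carries the epidermal differentiation complex.

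Promoter sequences of 3 of these genes and of Sftpa1 are shown as examples, chosen because they hold the motif in question. Each is the 250 bases before the transcription start in RefSeq (GRCm38.p6), 5′ to 3′. Capitals mark TGANTCA, the motif of AP-1, a factor known for its role in keratinocyte differentiation, in the first 3, and CAAGTG or its reverse complement, the core motif of NKX2-1, a factor of surfactant genes, in the fourth.
Sprr1a (chr3:92485882-92486131, minus strand): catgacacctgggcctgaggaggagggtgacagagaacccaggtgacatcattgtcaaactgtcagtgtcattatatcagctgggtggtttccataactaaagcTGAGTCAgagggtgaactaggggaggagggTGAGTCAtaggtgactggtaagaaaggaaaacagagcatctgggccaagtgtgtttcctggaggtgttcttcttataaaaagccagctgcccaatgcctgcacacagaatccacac
Lor (chr3:92083143-92083392, minus strand): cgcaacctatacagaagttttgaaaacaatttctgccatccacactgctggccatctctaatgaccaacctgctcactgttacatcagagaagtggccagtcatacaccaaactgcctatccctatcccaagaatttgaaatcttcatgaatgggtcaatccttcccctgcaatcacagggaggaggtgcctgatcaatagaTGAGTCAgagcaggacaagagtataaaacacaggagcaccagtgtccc
Krtdap (chr7:30787655-30787904, plus strand): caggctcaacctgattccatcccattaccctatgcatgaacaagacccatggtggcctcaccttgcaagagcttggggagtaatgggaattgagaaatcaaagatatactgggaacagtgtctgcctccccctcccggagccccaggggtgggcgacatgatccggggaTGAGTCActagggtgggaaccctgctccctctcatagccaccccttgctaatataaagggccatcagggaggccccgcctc
Sftpa1 (chr14:41131538-41131787, plus strand): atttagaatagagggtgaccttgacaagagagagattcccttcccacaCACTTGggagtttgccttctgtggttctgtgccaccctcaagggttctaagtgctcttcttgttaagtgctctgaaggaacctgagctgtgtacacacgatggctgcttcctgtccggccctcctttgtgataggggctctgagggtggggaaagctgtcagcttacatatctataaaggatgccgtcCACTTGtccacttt

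Sprr1a held 2 AP-1 motifs, at 146 and 116 bases before the start, Lor held 1 at 48 bases and Krtdap 1 at 81 bases. Of the 18 named genes with the largest differences or bounds on the forestomach side, 14 had a window, and 6 of these held TGANTCA, while Cdsn, Asprv1, Lypd3 and all 3 Lce1 genes did not. On the lung side, 1 of 14 held TGANTCA and 3 of 14 held CAAGTG, which Sprr1a also held. Both strands were searched, and the last 2 letters of the first motif can serve as the first 2 of the second. TGANTCA occurred in 12.5% of the 481 windows of genes at least 4-fold higher in forestomach, in 6.34% of the 852 windows of genes at least 4-fold higher in lung, in 5.22% of the 14458 windows of all tested genes, and in 6.75% of all 32851 windows of this length. CAAGTG occurred in 11.0%, 14.1%, 9.96% and 11.6% of the same windows, and 2 times in the window of Sftpa1, at 202 and 14 bases before the start. A match is a string of letters and not a measured site.

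Squamous keratins and junction genes did not all move one way. Of 30 genes of the squamous epithelium and hemidesmosome list, 18 were higher in forestomach, 8 were not called and 4 were higher in lung. The median was -2.24, and was -3.63 with slide 3 alone and -1.30 with slides 1 and 2. Of the 30 genes, 11 had no lung array above background and passed the filter through forestomach alone, and the median was -1.75 among the 12 measured on all 10 arrays. Those higher in lung included Lama3 and Lamb3, which encode laminin chains of the basement membrane, and Itga6, a laminin-binding integrin subunit, at 2.19, 1.26 and 1.44, and these were named after their values were seen. Krt5, the keratin of basal cells, had ratios of 0.08, -0.03, -0.13, 0.63 and 0.29 in lung and 2.96, 3.71, 2.90, 3.06 and 3.74 in forestomach. The tissues did not overlap, but 3 of the 5 lung arrays were at background, so that the size of the ratio difference (-3.11, adjusted P = 7.74e-07) was not well measured. Its partner Krt14 was 31.7-fold higher in forestomach. Both calls ended with median centring, where Krt5 differed by -0.13 (adjusted P = 0.920) and Krt14 by -2.15 (adjusted P = 0.0898). Krt4, the mucosal partner of Krt13, was at least 120-fold higher, and Sprr3 at least 366-fold. Trp63, the master factor of basal squamous cells, did not differ past the limits by its brightest probe (0.22, adjusted P = 0.259), whereas its other probe gave -5.58 (adjusted P = 2.57e-06).

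The Krt5 ratio understates the contrast in Cy5 signal, as the reference channel differed too. The raw median Cy5 signal of Krt5 was 87.5, 86, 72, 141 and 123 in lung and 4023, 61145, 2308, 4069 and 75369 in forestomach (mice 1 to 5). Its Cy3 signal, the channel labelled as the common reference, was 53.5, 57, 45, 64 and 65 on the lung arrays and 7455, 5660, 5860, 12376 and 6327 on the forestomach arrays. On the forestomach arrays of mice 1, 3 and 4 Cy3 thus read higher than Cy5 at this probe. Gkn2, a stomach mucosal gene, read 57, 863, 3588, 66 and 995 in Cy3 on the forestomach arrays of mice 1 to 5, against 33 to 49 on the lung arrays.

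Over all genes tested, 107 were well above background in Cy3 on all 5 forestomach arrays and on no lung array. Of these, 79 were called higher in forestomach, 23 were not called and 5 were called higher in lung. The reverse held for 21 genes, Sftpc among them, and all 21 were called higher in lung. Of the cornified envelope list 12 of 27 tested genes were among the 107, and its median difference was -7.27 in Cy5 alone, against -6.00 as a ratio. The bounds above use Cy5 and can exceed the fold of the ratio. What put signal into Cy3 there was not tested.

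**Figure D3:**
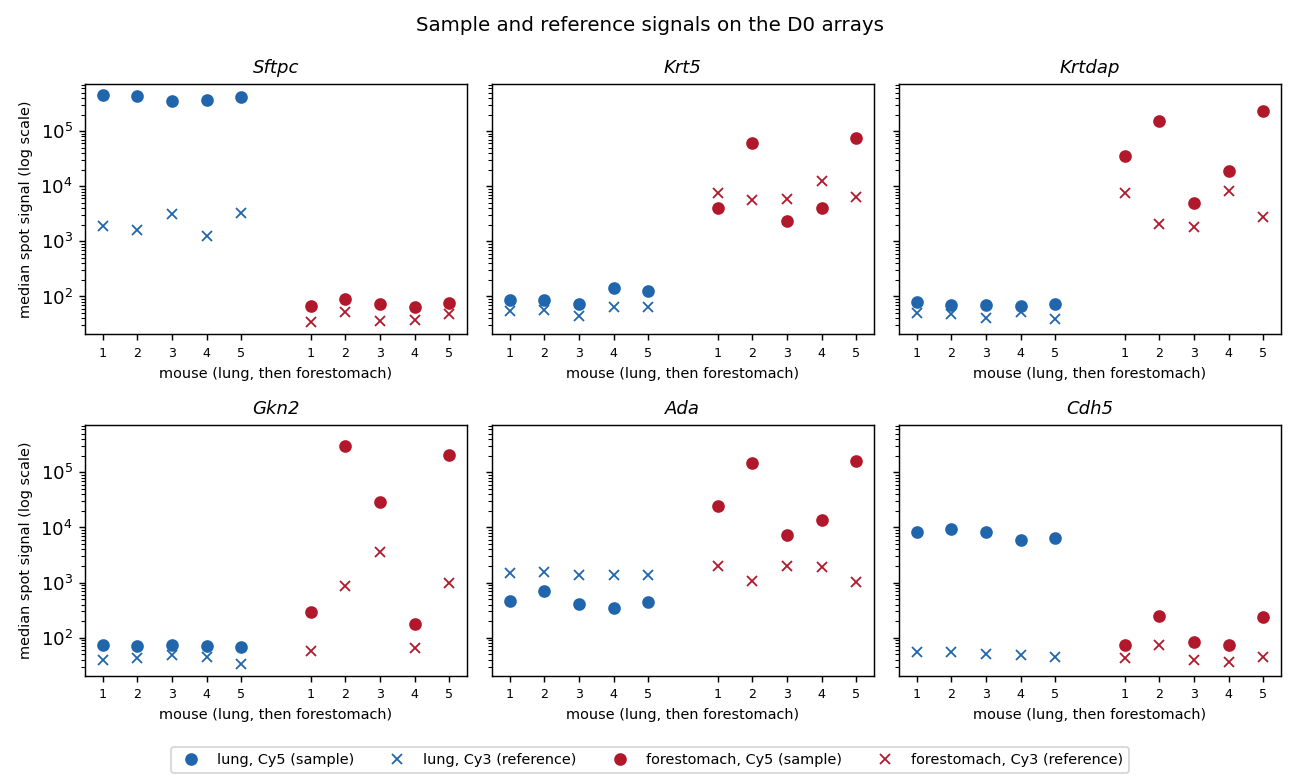
Raw median spot signal (log axis) of 6 genes in Cy5 (sample, circles) and Cy3 (reference, crosses) on the lung (blue) and forestomach (red) arrays of D0 mice 1 to 5. The Cy3 crosses of Krt5 lie between 45 and 65 on the lung arrays and between 5660 and 12376 on the forestomach arrays, while those of Ada lie between 1040 and 1991 on all 10 arrays.

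Muscle and regional identity genes also differed. Of 14 tested smooth muscle genes, 12 were higher in forestomach and 2 were not called. The median was -2.25, and became -0.32 with median centring and -1.62 with the median over the probes of a gene. Actg2, the gamma actin of visceral smooth muscle, ranged from -0.20 to 0.18 in lung and from 5.26 to 6.00 in forestomach, a 48.5-fold difference (adjusted P = 1.79e-09). Myh11, smooth muscle myosin, overlapped between tissues, with 3.12 to 3.92 in lung and 2.75 to 6.26 in forestomach. Its difference was -1.50, and 0.89 with median centring. Its call (adjusted P = 0.0419) was lost when any array other than that of forestomach mouse 4 was left out, with adjusted P values of up to 0.0879. It was also lost with slide as a random block (adjusted P = 0.0718). Among 14 lung regional transcription factors, 11 were higher in lung and none was higher in forestomach, and 2 of the 14 had no forestomach array above background. Nkx2-1, the lung lineage factor, had ratios of 4.24, 4.23, 4.34, 4.06 and 4.47 in lung, stayed between -0.08 and 0.08 in forestomach, and was at least 18.9-fold higher in lung.

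Of 15 tested foregut and stomach transcription factors, 11 were higher in forestomach and none was higher in lung, with a median of -2.14. Of the 15, 6 had no lung array above background and passed the filter through forestomach alone, and the median was -1.66 over all 20 members without the filter. Pitx1, a homeobox factor, differed by -5.86, and Grhl3, a factor of epidermal barrier formation, by -4.69. Barx1, which patterns the stomach mesenchyme, was at background in all lungs and ranged from 0.33 to 3.17 in forestomach. It was at least 2.43-fold higher there, and was well above background on 4 of the 5 forestomach arrays. With only the forestomach arrays of mice 1 and 4 its difference was -0.58 and missed the fold limit. Cell cycle genes also leaned to the forestomach, with 15 of 23 genes of the proliferation list higher there, 1 higher in lung and a median of -1.30, which became 0.99 with median centring in place of LOWESS. The median was -0.67 with forestomach slide 3 alone and -1.56 with the dim slides 1 and 2, and the mean ratio of the list was -2.48 and -2.58 on slide 3, against -3.28 to -2.61 in lung and -1.74 to -1.33 on the dim slides. The gene higher in lung was Mcm4, a replication helicase subunit, at 0.63. Ccnb1, cyclin B1, differed by -2.16 and Mki67 by -1.18.

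Glandular stomach genes were present on only some forestomach arrays. The mean ratio of the 19 genes on the array was 0.50, 5.58, 4.66, 0.24 and 4.00 in the forestomachs of mice 1 to 5, and 0.94 to 1.26 in lung. The arrays of mice 2, 3 and 5 thus stood apart from those of mice 1 and 4, on which 2 of the 19 genes were well above background, against 18 or 19 on the others. This does not follow the slides, since mouse 3 shared slide 2 with mouse 4. Cblif, the gastric intrinsic factor, read 0.16, 9.49, 8.65, 0.68 and 7.34 in the forestomachs and 0.26 to 0.37 in lung. Atp4a, the proton pump of parietal cells, read 0.09, 7.31, 5.92, 0.15 and 5.68. Pgc, a pepsinogen of chief cells, read 0.32, 5.14, 5.64, 0.53 and 4.32. The values of these genes were 0.09 to 0.68 in mice 1 and 4 and 4.32 to 9.49 in the other 3.

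Of the 19 glandular genes, 9 were called higher in forestomach, 9 were not called, and Cldn18, a claudin of both stomach and lung epithelium, was higher in lung at 1.34. Of the 19, 7 had no lung array above background. The calls for Cblif, Atp4a, Gkn1, a surface mucous cell gene, and Anxa10, an annexin of gastric mucosa, were lost when any array other than those of forestomach mice 1 and 4 was left out (highest adjusted P of 0.0728, 0.0786, 0.0949 and 0.0722). Pgc also kept its call without lung mouse 3 and lost it without the same other 7 arrays, with an adjusted P of up to 0.0634. With slide as a random block and all arrays in, the calls for Cblif, Atp4a, Gkn1, Anxa10 and Pgc were also lost (adjusted P of 0.0908 to 0.118). With only the forestomach arrays of mice 1 and 4, chosen after these values were seen, the list's median difference moved from -2.26 to 0.03, and 3 of its genes were higher in forestomach and 6 in lung. Gkn2 and Tff1, a trefoil peptide, were well above background on all 5 forestomach arrays, at 2.59 to 8.66 and 2.31 to 6.74, and their calls did not depend on a single array, although with median centring that of Tff1 was lost (adjusted P = 0.166). With the same 2 arrays the cornified envelope list gave 26 of 27 genes higher in forestomach, as with all 5.

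**Figure D4:**
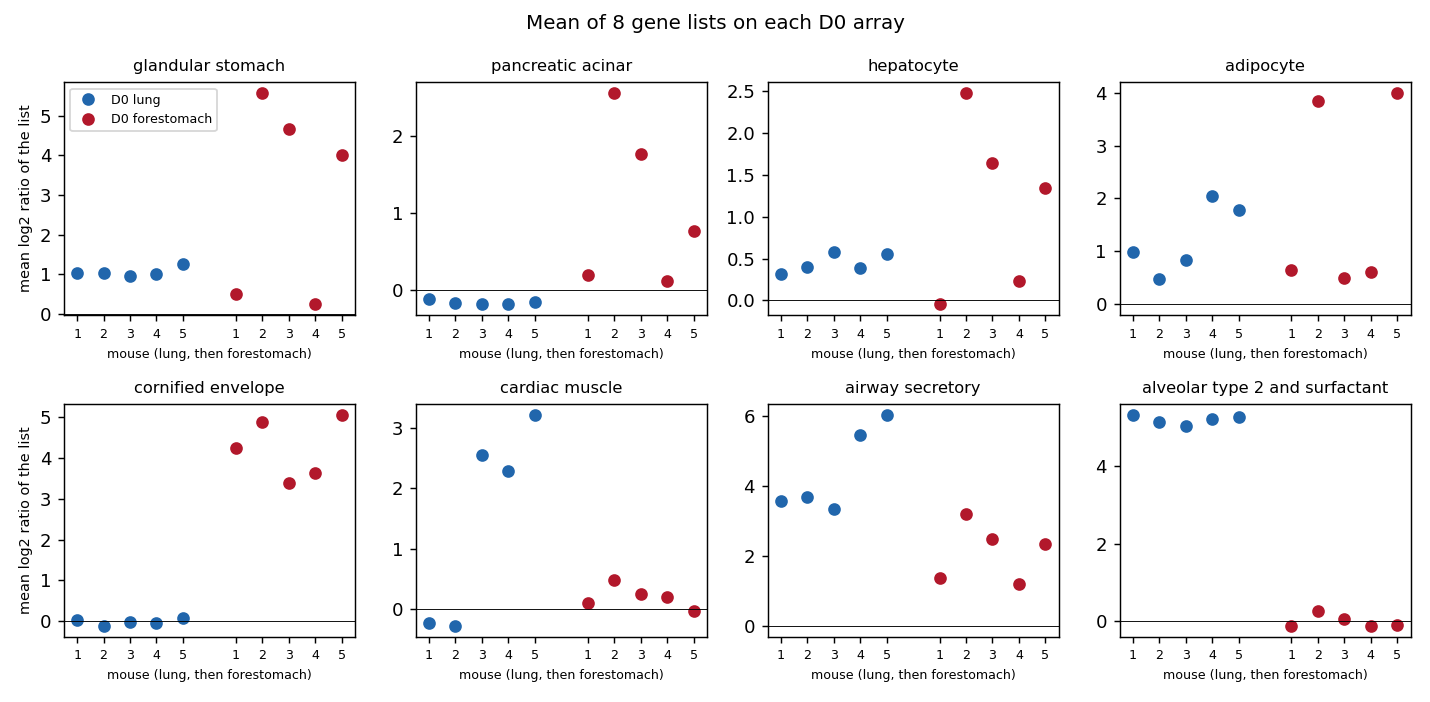
Mean log2 ratio (vertical axis, its own scale in each panel) of 8 gene lists on the lung (blue) and forestomach (red) arrays of D0 mice 1 to 5. The glandular stomach list lies at 0.24 and 0.50 in the forestomachs of mice 4 and 1 and at 4.00 to 5.58 in the others, and the cardiac muscle list is high only in the lungs of mice 3, 4 and 5.

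Some genes shared by lung and glandular stomach changed direction with the choice of array. Chia1, an acidic chitinase, ranged from 5.78 to 6.78 in lung and read 0.38, 9.74, 7.79, 0.00 and 6.85 in the forestomachs. Tspan1, a tetraspanin, ranged from 6.37 to 6.55 in lung and read 0.07, 8.38, 7.56, 0.02 and 6.79. Neither was called with all 10 arrays (adjusted P = 0.501 and 0.342). With the forestomach arrays of slide 3 both were higher in forestomach, by -1.88 and -1.13, and with those of mice 1 and 4 both were higher in lung, by 6.22 and 6.42. Agr2, a disulfide isomerase of mucus cells, likewise moved from -5.88 with slide 3 to 1.77 with mice 1 and 4. Cblif, Anxa10, Chia1, Tspan1 and Agr2 had the 5 largest SDs of all genes over the forestomach arrays, from 4.09 for Agr2 to 5.26 for Anxa10.

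Marker lists of other tissues were also uneven across arrays, and the source of that RNA was not tested. The pancreatic acinar list averaged 2.57, 1.76 and 0.76 in the forestomachs of mice 2, 3 and 5, against 0.19 and 0.11 in mice 1 and 4, and the hepatocyte list 2.48, 1.64 and 1.34 against -0.05 and 0.23. Among forestomach arrays the adipocyte list was high on slide 3 alone, at 3.84 and 4.00 in mice 2 and 5 against 0.49 to 0.64. Its median difference was -3.41 with slide 3 and 0.76 with slides 1 and 2. Since slides 1 and 2 were dim, with 1 or 2 adipocyte genes above background, fat and signal cannot be told apart there. In lung, the adipocyte list averaged 2.05 and 1.78 in mice 4 and 5 and 0.48 to 0.99 in mice 1 to 3. The lung mesothelium list ranged from -1.05 to 1.36. The cardiac muscle list averaged -0.23 and -0.29 in the lungs of mice 1 and 2 and 2.55, 2.29 and 3.22 in mice 3, 4 and 5. Myh6, the atrial myosin heavy chain, read 0.22, 0.36, 6.16, 6.12 and 5.86 in lung. It was at background on all 5 forestomach arrays and passed the filter through lung alone. It was at least 23.2-fold higher in lung (adjusted P of the ratio difference 0.0243), and lost the call without the lung array of mouse 3, 4 or 5 (adjusted P = 0.0606, 0.0607 and 0.0606). Its other probe gave 0.72 and was not called (adjusted P = 0.0591).

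The other genes that varied most among the 5 lungs were Sln, Clca1, Saa3 and Reg3g. Sln, sarcolipin of atrial muscle, read 0.00, -0.13, 5.02, 4.97 and 5.75, and so followed Myh6. It was not called with all arrays (adjusted P = 0.127), but was without the lung array of mouse 1 or 2 (adjusted P = 0.0401 and 0.0353). Reg3g, an antibacterial lectin, read 1.01, 1.5, 0.87, 3.5 and 7.30, and Clca1, a goblet cell gene, read 6.5 in mouse 5 and -0.15 to 0.04 in the other 4. Saa3, an acute phase protein, read -4.29, -4.85, -0.71, -3.0 and 1.79. None of these 3 was called between tissues. Over all genes the median SD was 0.15 in lung and 0.34 in forestomach, and 85.7% of genes varied more among the forestomach arrays.

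Genes of aromatic hydrocarbon metabolism were divided between the tissues. Chrysene and related compounds bind the aryl hydrocarbon receptor, which induces P450s that turn them into reactive epoxides, while conjugating and reducing enzymes clear the products. Of 17 tested genes of this list, 7 were higher in lung, 5 were higher in forestomach and 5 were not called. Ahr, the receptor itself, ranged from 1.09 to 2.26 in lung and from -0.44 to 0.05 in forestomach, a 3.84-fold difference (adjusted P = 2.49e-05), but its other probe gave 0.19 (adjusted P = 0.129). Cyp1a1, the main inducible P450, read 1.21, 1.12, 2.99, 1.24 and 1.75 in lung and was at background in all forestomachs. It was at least 2.56-fold higher in lung. Ahrr, the repressor of the receptor, passed the background flag on 2 forestomach arrays and no lung array, and was not tested.

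Nqo1, a quinone reductase induced by such hydrocarbons and by NRF2, read -1.63, -1.26, -1.22, -1.40 and -1.80 in lung and 2.03, 3.71, 3.33, 2.18 and 2.24 in forestomach. The tissues did not overlap and differed by 17.9-fold (adjusted P = 1.99e-06), but with median centring the difference was -1.72 and was not called (adjusted P = 0.117). Aldh3a1, an aldehyde dehydrogenase of the same gene battery, was 4.76-fold higher in forestomach (adjusted P = 2.53e-06), a difference of -2.25 that median centring turned to 0.094. Cyp1b1, a P450 that also activates such hydrocarbons, was 2.07-fold higher in forestomach (adjusted P = 0.0187), with an overlap set by mouse 2 at -2.0, and with slide 3 alone the difference was -0.54 and was not called, while median centring gave 0.91.

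In the wider P450 and phase I and II list, 12 of 25 genes were higher in lung. Another 6 were higher in forestomach and 7 were not called. The median was 1.03, but 0.27 with forestomach slide 3 alone and 1.42 with slides 1 and 2. The mean ratio of the list was 3.25 to 3.52 in lung. In forestomach it was 2.91 and 3.11 on slide 3 and 1.62 to 1.85 on the dim slides. Cyp4b1, a lung P450, differed by 6.05, and Fmo1, a flavin monooxygenase, by 5.38. The glutathione transferases were mixed, with Gsta3 at 2.47 and Gsta4, Gsto1 and Gstp1 at -3.0, -3.22 and -1.55. Of 22 genes of nucleotide excision repair, which removes bulky DNA adducts, 15 were not called, 5 were higher in forestomach and 2 in lung. The list's median was -0.29, and was 0.003 with forestomach slide 3 alone, -0.41 with slides 1 and 2, and 1.49 with median centring. The damage sensors Xpc and Ddb1 were higher in lung at 1.16 and 0.65, and Ercc1, part of an excision nuclease, was higher in forestomach at -1.29. Of 17 p53 targets, 5 were higher in lung and 6 in forestomach, among them Fas at 2.41 and Cdkn1a, the p21 gene, at -1.66. The median of the p53 targets was -0.26, or 1.98 with median centring. It was -0.02 with forestomach slide 3 alone and -0.53 with slides 1 and 2.

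The comparison was repeated in mice that the D0 contrast did not use. The fit took the 13 lung and 14 forestomach arrays of the dosed mice, with dose group as a covariate. In it 3509 genes (24.4%) were higher in lung and 3125 (21.7%) were higher in forestomach. Most dosed mice gave both tissues, but mouse was not a block in this fit or in the contrast of D0 with dosed mice below. Of the 6454 genes called in D0, 5590 were called in the dosed mice, all in the same direction, and 6446 had a difference of the same sign. Across the 14380 genes the differences had a Pearson r of 0.981 and a Spearman rho of 0.965, with a slope of 0.95. The points share probes, reference RNA and slides, and genes are not independent replicates. The dosed forestomach arrays of slides 1 and 2 were dim as in D0, with 25.7% to 34.9% of spots well above background in Cy5. On slide 3 the share was 40.4% to 51.7%, and on the dosed lung arrays 51.9% to 56.7%. The repeat thus carries the same mix of tissue and signal. The alveolar type 2 list had a median of 5.09 in the dosed mice and the cornified envelope list a median of -5.25. The medians of 3 lists changed sign, from -0.78 to 0.27 for skeletal muscle, from -0.84 to 0.42 for adipocyte and from -0.10 to 1.22 for mesothelium, of whose 6 tested genes 5 were higher in lung in the dosed mice.

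No gene differed past both limits in its tissue difference between D0 and dosed mice (limma, smallest adjusted P = 0.0563), whereas 1160 genes (8.07%) had an unadjusted P of at most 0.05. The count was 9 with slide as a random block, 21 with array weights and 8 among genes measured on all 10 arrays. Cyp1a1 differed by 1.48 in D0 and by -0.31 in dosed mice, but was above background on none of the 5 D0 and on 4 of the 14 dosed forestomach arrays, so that neither size was well measured. The joint fit, which weights the 3 dose groups equally, put the change at 1.72, which was not called (adjusted P = 0.563). Ada differed by -9.04 in D0 and by -8.03 in dosed mice, and Krt13 by -7.32 and -6.11, and neither change was called (adjusted P = 0.991 and 0.972).

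Of the 13 dosed lung arrays, 2 carried squamous genes. Krtdap read 5.83 and 6.17 in the lungs of mice 17 and 19, both of D3, and -0.23 to 0.13 in the other 11. On the same 2 arrays Krt13 read 5.67 and 6.01, against -2.40 to -2.06 in the other 11, and 24 genes of the cornified envelope list were well above background, against 12 or 13. Without these 2 arrays, a choice made after seeing the data, Ada differed by -9.23 and Krt13 by -7.29 in dosed mice, and the cornified envelope median was -6.01. The counts were then 3581 higher in lung and 3160 higher in forestomach, 5697 of the D0 calls were called in the same direction, and the change between D0 and dosed mice was still called for 0 genes, with 1114 below an unadjusted P of 0.05.

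**Figure D5:**
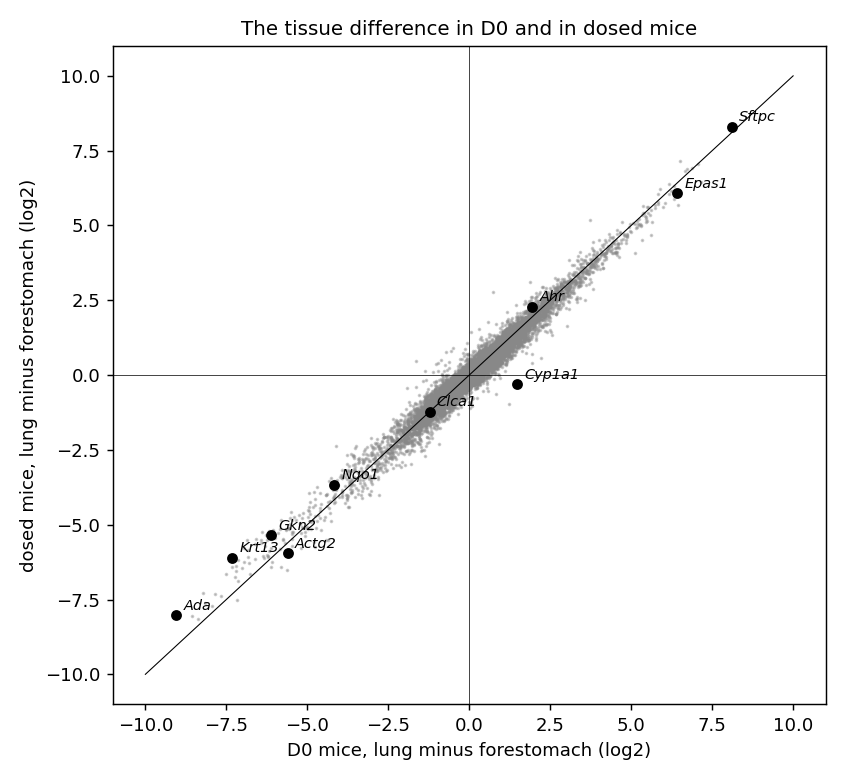
Difference between lung and forestomach (log2) in the D0 mice (horizontal axis) and in the dosed mice (vertical axis) for 14380 genes, with 10 genes marked and the line of equal values. The cloud follows the line (r = 0.981 across genes), and Cyp1a1 lies below it, at 1.48 and -0.31.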

How the data were processed

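RNA of 56 tissue samples was hybridized to Agilent SurePrint G3 arrays, and the 10 D0 lung and forestomach arrays were compared. The authors deposited a table of log2 ratios (Cy5 sample over Cy3 reference), made per the study's methods by LOWESS of median signals with the background left in. Its columns correlated with own loess ratios of the scanner signals at r of 0.977 to 0.998. With the ratios before any normalization r was 0.36, 0.34 and 0.28 on the forestomach arrays of mice 1, 3 and 4 and 0.91 to 0.97 on the other 7. The medians of the 10 columns ranged from -0.03 to -0.02. The deposited scanner files (Feature Extraction 10.7.3.1) hold median spot intensity in both channels and flags, which per the file headers are other values of 0 or 1. Low Cy5 signal on 3 forestomach arrays, and the number of arrays, limit the precision.

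Of 55681 probes, 57 with a non-uniform spot were left out. Accessions were matched to RefSeq symbols (GRCm38.p6) for 26413 probes (47.4%), 20018 genes, each represented by its probe with the highest mean Cy5 signal; the other probes are unnamed here. limma 3.58.1 (R 4.3.3) was fitted to all tested probes with tissue as the factor, in place of the MAANOVA of the study's methods, with Benjamini-Hochberg adjustment over all 29050 probes. The fit was tested on simulated data, drawn with independent noise for each array and no slide effect. That test cannot show how slides or dim arrays affect the calls. Promoter motifs were searched in Python 3.11.15. Both tissues came from the same 5 mice per the labels, yet the deviations of same-numbered arrays correlated at -0.07 to 0.08; mouse as a block was an alternative. P values measure the spread between the 5 mice, and slides, of a tissue. The named genes were the 10 largest differences in each direction among genes measured on all arrays without overlap, the 8 largest bounds in each direction, fixed markers, and the 5 largest SDs in each tissue, with list members given as examples. The members, lists and rules were chosen with earlier results of these data known.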

Additional observations from a re-analysis of the deposited data

Results flagged for a closer look

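Of 204 groups of 5 arrays (70 named genes and 31 list means, plus the untested Ahrr, in each tissue), 7 held an array whose gap to its nearest neighbour exceeded 0.71 of the whole range (Dixon's criterion), where chance gives about 1 group in 20, or 10.2 here. In lung these were Clca1, whose array of mouse 5 at 6.5 took a ratio of 0.970, the B cell list, with mouse 3 at 0.71 (ratio 0.781), and the p53 target list, with mouse 3 at 0.03 (ratio 0.745). In forestomach they were Ada, with mouse 3 at 6.16 (ratio 0.895), Cyp1b1, with mouse 2 at -2.0 (ratio 0.884), the mesothelium list, with mouse 5 at 0.95 (ratio 0.714), and Icam2, with mouse 4 at 0.43 (ratio 0.712).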

How the results depend on the processing

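The numbers of genes higher in lung and in forestomach, 3552 and 2902, were 3997 and 2491 with own loess, 3853 and 2512 with normexp, and 3842 and 2535 with Cy5 alone; the median over all genes was 0.12, 0.11 and 0.10 there. Median centring without LOWESS gave 8232 and 241. Genes measured on all 10 arrays gave 1338 and 1547, and a 4-fold limit 896 and 537. Slide as a random block gave 3431 and 2760. The replicate block of mouse gave 3535 and 2906 and changed no call of a named gene, but some counts of list members moved. With it 9 alveolar type 1, 4 airway secretory and 11 macrophage genes were higher in lung, and 11 glandular stomach genes were higher in forestomach. Leaving out each array gave 3419 to 3621 and 2681 to 2995. Alternatives chosen after seeing the data were the lung arrays of mice 1 and 2 only, with 2798 and 1844 genes, and the forestomach arrays of mice 1 and 4 only, with 4027 and 3481. In dosed mice, 6634 genes were called, 2730 among genes measured on all 10 arrays, and 6741 without the 2 lung arrays with squamous genes. The difference between D0 and dosed mice was called for 0 genes, and for 8, 21 and 9 under that filter, array weights and slide as a random block (chosen after seeing the data).

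Of 70 named genes tested, 48 kept their status as called or not called under all alternatives in which they were tested. Direction was compared only where a gene was called. Many of the 70 had been chosen for the largest differences or bounds in these same data, which favours stable calls. A filter of 5 of 10 arrays tested 63 of the 70, and of all 10 arrays 29. Median centring turned Myh11 to 0.89, Cyp1b1 to 0.91 and Aldh3a1 to 0.094, and the medians of the proliferation, proteasome, p53 target, nucleotide excision repair, mesothelium and skeletal muscle lists became positive. Forestomach slide 3 alone turned Chia1 to -1.88 and Tspan1 to -1.13, and forestomach mice 1 and 4 alone turned Gkn1 to 0.033 and Agr2 to 1.77. The median over the probes of a gene turned Trp63 to -2.68. The cause was not tested beyond the array values given above. Dim Cy5 signal on 3 forestomach arrays limits what can be said of genes near background there.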

Other observations

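Several further gene lists were divided between the tissues or held few calls. Of 16 elastic fibre genes, 8 were higher in lung and 3 in forestomach, with a median difference of 0.64. The enteric neuron and glia list had 1 of 9 genes higher in lung and 3 higher in forestomach, and 2 of 4 genes of interstitial cells of Cajal, the pacemaker cells of the gut, were higher in lung. Kit, the receptor by which those cells are known and which mast cells also carry, differed by 4.12. The skeletal muscle list had 4 of 8 genes higher in forestomach and the mesothelium list 2 of 6 higher in lung and 1 in forestomach. Of 31 proteasome genes, 20 were not called, 10 were higher in forestomach and 1, Psmd3, was higher in lung at 0.66, with a median of -0.34 that was 1.92 with median centring.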
